A study of Mus musculus with 4 samples.

Results

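The S100 genes examined here encode small proteins, most of them calcium-binding, several of which act as alarmins, signals of damage that dying cells release. The rows whose symbols were S100a1, S100a4, S100a6, S100a8, S100a9, S100a10, S100a11 and S100a13 were taken, which gave 8 of the 17013 genes listed for these cultures. All 8 passed the filter on low values and were among the 12470 genes tested. Between the high-fat-containing medium and its control, limma called 0 of the 8 changed at an adjusted p under 0.05, where 9.0% of all tested genes were called, 3.99% higher and 5.0% lower. Estimated fold changes of Fat over Con lay between 0.820 for S100a13, whose adjusted p was 0.0528, and 1.12 for S100a6.

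Macrophages grown with M-CSF from the bone marrow of wild-type male C57BL/6 mice were kept for 24 h on porous inserts, with necrotic fat preparations below the membrane. Abdominal fat had been digested with collagenase, freeze-thawed and centrifuged, and its middle layer served as control medium (Con) and its top layer as high-fat-containing medium (Fat). Both groups also received artificial necrotic bone fluid (aNBF), an extract of freeze-thawed bone and marrow in which the study probed for the S100A6 protein by Western blotting. There is no group without aNBF, so nothing here compares cells with and without it. Each group had 2 libraries, and neither the age of the mice nor whether the libraries came from separate animals or cultures is stated in the sources used here. P-values therefore measure only the spread between these libraries, which may be technical.

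S100 proteins form dimers, and in most of them calcium binding exposes a surface through which they hold target proteins. S100A8 and S100A9 pair to form calprotectin, which is abundant in neutrophils and monocytes, binds zinc and manganese and, once released, acts through receptors such as TLR4 and RAGE. S100A4, S100A6, S100A10 and S100A11 act mainly inside cells, on the cytoskeleton and on annexins at membranes. S100A1 is best known for control of calcium release in muscle, and S100A13 for the export of IL-1α and FGF1 without a signal peptide.

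The macrophage label was checked against 10 markers, all of which were found and tested, with a summed level of 38909 and 36681 CPM (reads scaled to library size) in Con and 30542 and 28834 CPM in Fat. The groups did not overlap, and 8 of the 10 log2 fold changes were negative, with a median of -0.27. Lyz2 made up most of each sum, at 28720.5 and 26818.8 CPM in Con and 21516.1 and 20346.7 CPM in Fat. It was not called by limma (adjusted p = 0.209), while DESeq2 called it lower (adjusted p = 1.48e-06) among 5 of the 10. Over all tested genes, limma called 3.99% higher and 5.0% lower, and DESeq2 called 4.0% higher and 5.22% lower. Mertk, Fcgr1, C1qa and C1qb were lower in Fat at an adjusted p under 0.05 (limma), Mertk no longer so without Con replicate 1 (0.0846) or Fat replicate 2 (0.145). Markers of B and T lymphocytes summed to 37.4 and 34.6 CPM in Con and 27.1 and 31.0 CPM in Fat, with a negative log2 fold change in 9 of the 9 tested and a median of -0.30. Those of fibroblasts and stroma summed to between 559.5 and 707.1 CPM, those of dendritic cells to between 9.37 and 18.1 CPM, and those of mast cells and basophils to between 17.8 and 24.0 CPM. Among these lists, limma called 2 fibroblast markers lower (Dcn and Postn) and 1 basophil marker higher (Mcpt8). It called 0 lymphocyte and 0 dendritic cell markers, as did edgeR. At an unadjusted limma p under 0.05 there were 3 lymphocyte and 1 dendritic cell markers, against 24.1% of all tested genes. DESeq2 called 0 and 1 of them, against 9.21% of all genes, and gave no adjusted p for 2 lymphocyte and 1 dendritic cell markers. Of 10 erythroid markers, 4 were found by symbol, each with 3 reads or fewer in every library. Adipocyte markers summed to 9.23 and 10.4 CPM in Con and to 22.2 and 17.0 CPM in Fat, and 3 of them (Cidec, Plin4 and Car3) were called higher in Fat. Slc36a2 (log2 fold change 0.08) made up most of the Con sum, and the other 9 markers summed to 0.206 and 0.240 CPM in Con and 12.4 and 6.63 CPM in Fat. The libraries held between 33573852 and 40785872 reads on genes, and a single read was worth between 0.0244 and 0.0295 CPM. In bulk RNA, a change in the share of a cell type cannot be told apart from a change in RNA per cell.

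The genes stood at very different levels, which were compared per length in TPM (the authors' values, scaled for gene length as well as library size). S100a11 was the most abundant, between 1463 and 1766 TPM over the 4 libraries, and ranked 62 of the 17013 genes by mean TPM. S100a6 followed between 853.0 and 1041 TPM, and S100a10 between 698.5 and 769.8 TPM. S100a8 lay between 558.1 and 677.4 TPM, S100a9 between 586.3 and 660.2 TPM and S100a4 between 534.4 and 608.4 TPM. The ranges of neighbors in this order overlapped only among these last 3 genes. S100a1 was lower, between 277.7 and 318.9 TPM, and S100a13 lowest of the 8, between 102.6 and 131.3 TPM and at rank 1198. Together the 8 genes held 0.540% and 0.548% of all TPM in the Con replicates and 0.560% and 0.544% in the Fat replicates, so the summed level overlapped between the groups.

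These levels did not extend to the rest of the family. Another 7 rows had symbols that begin with S100. S100a16 was at 8.30 ± 1.07 TPM (SD, n = 2) in Con and 6.67 ± 1.29 TPM (SD, n = 2) in Fat, a log2 difference of -0.34 (SE, the standard error, 0.18, adjusted p = 0.305). S100pbp, which encodes a binding protein of another S100 protein and not an S100 protein itself, differed by 0.08 on that scale (adjusted p = 0.645). S100a3, S100a5, S100a7a, S100a14 and S100b fell under the filter, with at most 7 reads in any library. Apart from S100b and S100pbp, all these genes lie on chromosome 3, where the order is S100a1, S100a13, S100a14, S100a16, S100a3, S100a4, S100a5, S100a6, S100a7a, S100a8, S100a9, S100a11 and S100a10. Abundant genes therefore stood next to genes at or near 0 in the same order, for example S100a6 at 945.0 ± 82.7 TPM (SD over the 4 libraries) between S100a5 and S100a7a, whose highest values were 0.149 and 0.609 TPM.

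**Figure D1:**
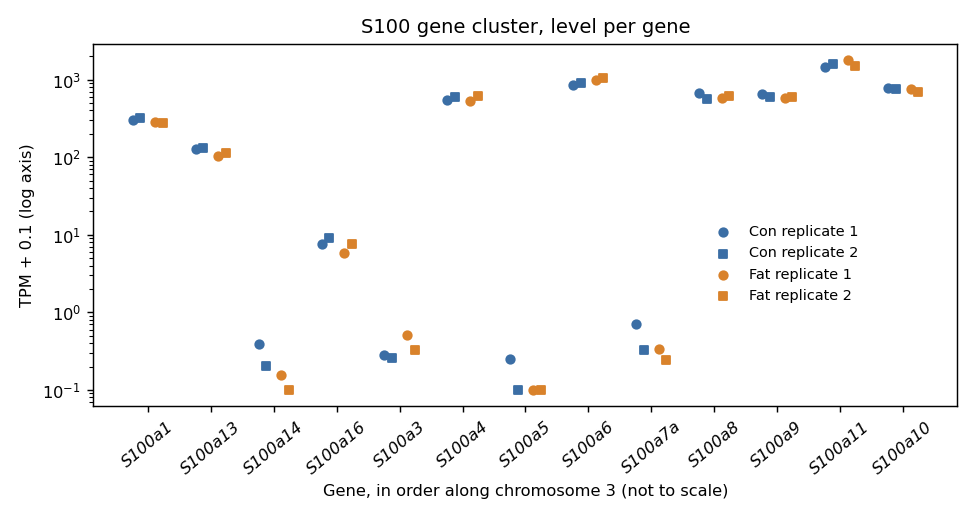
Level of 13 S100 genes in each library, in TPM + 0.1 on a log axis, with genes in their order along chromosome 3 and no scale for distance. Circles are replicate 1 and squares replicate 2 of Con (blue) and Fat (orange). The 8 genes described here lie above 100 TPM in every library, S100a16 lies between 5.76 and 9.06 TPM, and the other 4 lie below 1 TPM.

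Of the members that act mainly inside cells, S100a11, S100a6 and S100a10 came first by level, while S100a4 stood below S100a8 and S100a9 by mean TPM. S100a11, whose protein binds annexin A1 at membranes, stood at 337.1 CPM in Con replicate 1, 378.5 CPM in Con replicate 2, 401.5 CPM in Fat replicate 1 and 340.7 CPM in Fat replicate 2, the order in which values are given below. The Fat replicates lay on either side of the higher Con replicate, so the groups overlapped. The log2 fold change was 0.05, with a 95% interval from -0.17 to 0.27 (limma adjusted p = 0.789). S100a11 shared 38.6% of its stretches of 75 bases with 3 other genes (Gm12854, Gm7665 and Gm29240), so how its reads were assigned is uncertain.

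S100a10, the p11 protein that joins annexin A2 in a plasminogen-binding complex at the cell surface, was at 228.7 and 230.9 CPM in Con and 221.9 and 205.0 CPM in Fat. Both Fat replicates were below both Con replicates, by a log2 fold change of -0.11 (95% interval from -0.25 to 0.03, adjusted p = 0.32). S100a6, or calcyclin, was at 280.3 and 303.3 CPM in Con and 318.2 and 338.0 CPM in Fat, and it alone of the 8 was higher in both Fat replicates than in both Con replicates. Its log2 fold change of 0.17 (95% interval from 0.02 to 0.32, adjusted p = 0.158) was not called. Without Con replicate 1 this value was 0.11, and without Con replicate 2 it was 0.23.

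S100a4, a regulator of non-muscle myosin and cell motility, was at 125.2 and 140.1 CPM in Con and at 120.3 and 137.1 CPM in Fat. Replicates within a medium differed by more than the media did, and the log2 fold change was -0.04 (95% interval from -0.24 to 0.15, adjusted p = 0.792). In the annotation used here, 51.7% of its exonic bases also belong to Gm42674, a gene on the same strand, and no row of that name was used here.

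**Figure D2:**
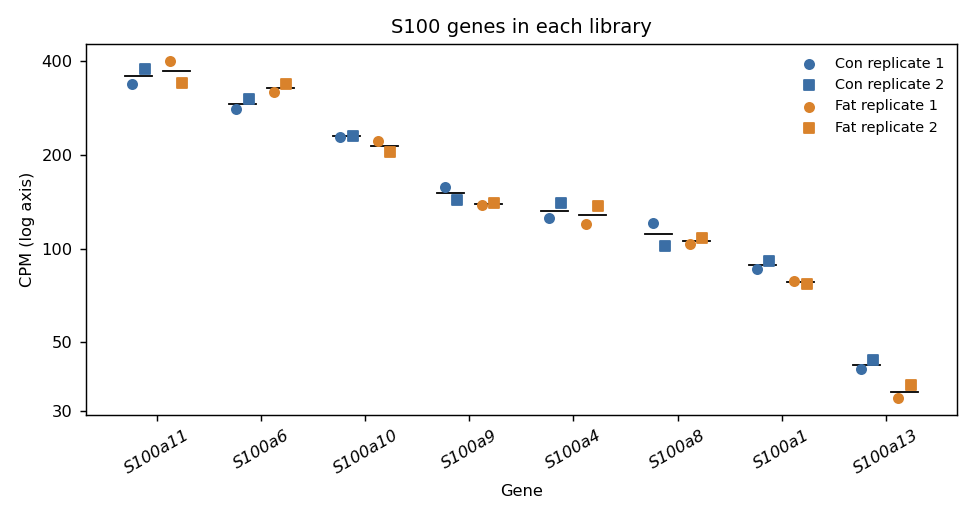
CPM of each of the 8 S100 genes in each library, on a log axis, with genes ordered by mean CPM. Circles are replicate 1 and squares replicate 2 of Con (blue) and Fat (orange), and black lines are group means over n = 2. The Fat points lie above the Con points for S100a6 alone and overlap them for S100a11, S100a4 and S100a8.

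The alarmin pair S100a8 and S100a9 stood at similar levels per length in every library. In TPM, S100a8 divided by S100a9 gave 1.03 and 0.949 for the Con libraries and 0.9998 and 1.03 for the Fat libraries, a ratio taken after the values had been seen. The groups overlapped, with a log2 difference of 0.04 (exact permutation test, two-sided, p = 0.667, where the smallest p that 2 libraries against 2 allow is 0.333). S100a8 was at 121.4 and 102.0 CPM in Con and at 103.7 and 108.3 CPM in Fat, so both Fat values lay between the Con values. The log2 fold change was -0.07 (95% interval from -0.27 to 0.13, adjusted p = 0.667). On the linear scale this interval runs from 0.831-fold to 1.09-fold. Con replicate 1 set its direction: without it the log2 fold change was 0.056. S100a9 was at 158.1 and 143.6 CPM in Con and 138.6 and 140.3 CPM in Fat, and both Fat values were just below the lower Con value. Its log2 fold change was -0.11 (95% interval from -0.26 to 0.03, adjusted p = 0.327), or from 0.837-fold to 1.02-fold.

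Because S100a8 and S100a9 are also abundant in marrow neutrophils, whose RNA the marrow extract or the marrow-derived culture can carry over, 16 neutrophil markers that do not include them were read beside them. Camp and Cebpe among them also stand in the lists of other alarmins and of regulators used here. Of the 16, 15 were found by symbol and 13 were tested, and 1 (Mmp8, the neutrophil collagenase) was called lower in Fat and 0 higher. At an unadjusted p under 0.05 there were 5, against 24.1% of all tested genes, of which limma called 5.0% lower. edgeR's quasi-likelihood test called 2 of the markers (Mmp8 and Lcn2), against 9.13% of all genes. DESeq2 called 1 (Mmp8), against 9.21%, and gave no adjusted p for 5 of the 13, which it could not call. The log2 fold change was negative in 10 and positive in 3. Their summed level was 621.3 and 571.9 CPM in Con and 512.0 and 471.1 CPM in Fat, and the groups did not overlap. Mmp8 made up most of that sum, at 457.8 and 426.1 CPM in Con and 373.5 and 340.1 CPM in Fat (log2 fold change -0.31, adjusted p = 0.0357, but 0.0972 without Con replicate 1 and 0.187 without Fat replicate 2). The secondary granule gene Ngp was at 78.7 and 70.8 CPM in Con and 65.0 and 59.6 CPM in Fat (log2 fold change -0.26, adjusted p = 0.0736). Lcn2 was at 18.6 and 18.1 CPM in Con and 15.1 and 14.6 CPM in Fat. Its log2 fold change was -0.31 (limma adjusted p = 0.0514, edgeR adjusted p = 0.0490). Camp differed by -0.42 on the log2 scale (limma adjusted p = 0.0888). Ltf, encoding lactoferrin, was at 39.1 and 32.9 CPM in Con and 35.7 and 34.6 CPM in Fat (log2 fold change -0.03, adjusted p = 0.883). The primary granule gene Mpo was at 2.30 and 1.68 CPM in Con and at 1.21 and 0.683 CPM in Fat (log2 fold change -1.03, adjusted p = 0.0784). In the other direction, the chemokine receptor gene Cxcr2 was at 3.39 and 3.25 CPM in Con and 3.99 and 4.12 CPM in Fat (log2 fold change 0.28, adjusted p = 0.253), and Retnlg differed by 0.10 on the log2 scale (adjusted p = 0.633). Ctsg and Stfa2 fell under the filter, and no row for Ly6g was used here. The median log2 fold change of the 13 tested markers was -0.10, against -0.11 for S100a9 and -0.07 for S100a8 themselves. The summed macrophage and lymphocyte markers were also lower in both Fat libraries, as given above. Erythroid markers, which marrow also holds, were at or near 0. The part of neutrophil RNA in the S100a8 and S100a9 values was not tested.

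**Figure D3:**
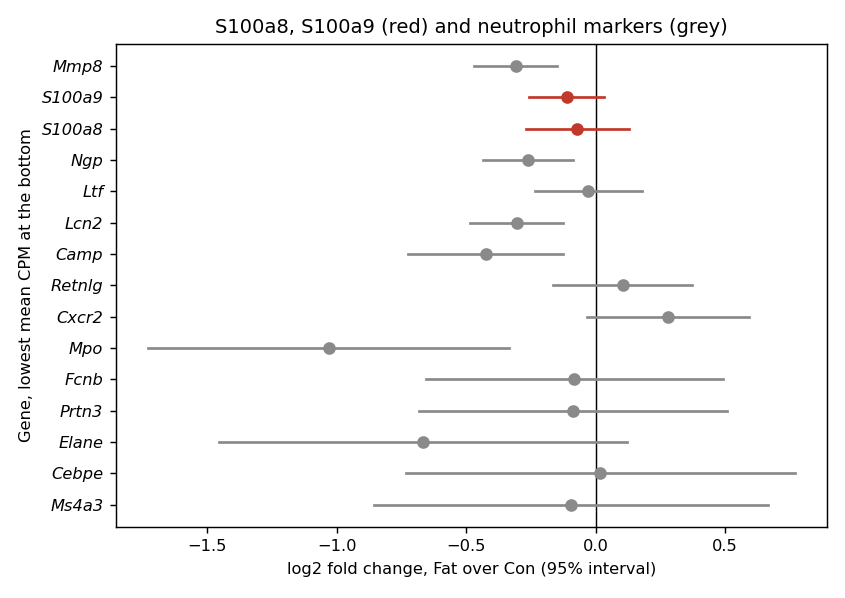
Log2 fold change of Fat over Con with its 95% interval (limma, n = 2 libraries per group) for S100a8 and S100a9 in red and for 13 neutrophil markers in grey, ordered by mean CPM. The intervals of S100a8 and S100a9 include 0, and that of Mmp8, at the top, runs from -0.47 to -0.15.

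The sequences upstream of S100a8 and S100a9 are given because they are the alarmin pair, and they are taken from RefSeq windows on GRCm38.p6. The windows cover 250 bases before each gene's start, less any bases that GENCODE annotates as exon. Capitals mark matches to TTNNGNAA, a C/EBP-like motif, or to GGGCGG, a GC box, on either strand.
S100a8, chr3:90668821-90668977, plus strand: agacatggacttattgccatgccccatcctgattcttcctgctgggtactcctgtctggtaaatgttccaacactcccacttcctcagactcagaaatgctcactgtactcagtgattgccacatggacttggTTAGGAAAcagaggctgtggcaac
S100a9, chr3:90695722-90695971, minus strand: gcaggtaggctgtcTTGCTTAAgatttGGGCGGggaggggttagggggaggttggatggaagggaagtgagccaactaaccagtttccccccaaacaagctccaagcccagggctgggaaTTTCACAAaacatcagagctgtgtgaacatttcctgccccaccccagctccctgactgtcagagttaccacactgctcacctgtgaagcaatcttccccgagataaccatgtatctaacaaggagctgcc

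The S100a8 stretch held 1 C/EBP-like match and that of S100a9 held 2. Such a match was present in 36.8% of the 32851 RefSeq windows of 250 bases, and a GC box in 32.7%. In its full window S100a8 also held TATAAA, 30 bases before its start in bases annotated as exon, as 12.4% of windows did. C/EBP factors, PU.1 (Spi1) and STAT3 are known regulators of the pair. Of 9 listed regulators, 8 were tested and limma called 0, against 9.0% of all tested genes. At an unadjusted p under 0.05 there was 1, against 24.1% of all tested genes, and edgeR and DESeq2 called 0. DESeq2 gave no adjusted p for 1 of the 8. The median log2 fold change of these regulators was -0.02. The largest was that of Cebpb, at 36.5 and 36.9 CPM in Con and at 38.3 and 60.7 CPM in Fat (log2 fold change 0.39, SE 0.18, adjusted p = 0.244). Fat replicate 2 alone stood apart. Without it the log2 fold change of Cebpb was 0.060, and without Fat replicate 1 it was 0.72 (adjusted p = 0.00111). Atf3 showed a log2 difference of 0.30 (adjusted p = 0.132), Cebpa one of -0.13 (adjusted p = 0.253) and Stat3 one of -0.10 (adjusted p = 0.368).

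S100a13 and S100a1 had the lowest fold changes of the 8. S100a13 was at 41.0 and 43.7 CPM in Con and at 33.1 and 36.4 CPM in Fat, with both Fat replicates below both Con replicates. The means were 42.4 ± 1.91 CPM (SD, n = 2) in Con and 34.8 ± 2.32 CPM (SD, n = 2) in Fat. Its log2 fold change of -0.29 (SE 0.07, 95% interval from -0.46 to -0.12) had an adjusted p of 0.0528, just above the threshold of 0.05. The call depended on the test: edgeR's quasi-likelihood test gave an adjusted p of 0.0464 and DESeq2 one of 0.0505. Limma after rescaling by median ratios gave one of 0.0403 (a setting that called 9.33% of all genes). Other limma settings raised it, to 0.0775 on TPM values and to 0.170 without the mean-variance trend. Those settings called 6.34% and 0.249% of all genes. The fit with a replicate block is given below. With single libraries left out, the log2 fold change of S100a13 lay between -0.35 and -0.22. Of the tested genes, 80.4% had a smaller log2 fold change in size. S100a1 was at 85.9 and 91.4 CPM in Con and at 78.8 and 77.1 CPM in Fat, again without overlap. Its log2 fold change was -0.18 (SE 0.06, 95% interval from -0.32 to -0.05, adjusted p = 0.0976).

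These 2 genes are neighbors that are transcribed away from each other. On GRCm38.p6 their RefSeq starts were 104 bases apart, and 42 bases lay between their outermost GENCODE exons. Those bases are printed because the genes start on either side of them.
S100a1 and S100a13, between their first exons, chr3:90514393-90514434, plus strand: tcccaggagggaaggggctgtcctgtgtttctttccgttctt
The upstream windows of both genes held 0 matches to TATAAA (the TATA box) and to CCAAT (the CCAAT box), as well as to the GC box and the C/EBP-like motif, on either strand. Of all windows, 33.8% held CCAAT. In TPM, S100a1 exceeded S100a13 by a ratio of 2.43 in each Con replicate and of 2.77 and 2.46 in Fat replicates 1 and 2. The log2 difference of that ratio was 0.10 (exact permutation test, two-sided, p = 0.333, the smallest p possible).

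The genes whose pattern over the 4 libraries was nearest to that of S100a13, by Euclidean distance of centered log2(CPM + 0.1), were Pccb, Nudt7, Fasn, AI467606 and 2610035D17Rik. Their distances lay between 0.0206 and 0.0308 on the log2 scale, and their log2 fold changes between -0.30 and -0.27. The distances describe 4 libraries, in which many of 12470 genes can look alike. Of the 5, Fasn (fatty acid synthase, adjusted p = 0.0456) and AI467606 (adjusted p = 0.0432) were called lower in Fat, and neither was called once any 1 library was left out.

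Over all 8 genes, at an unadjusted limma p under 0.05 there were 3 (S100a1, S100a6 and S100a13), against 24.1% of all tested genes. edgeR's quasi-likelihood test called 1, against 9.13% of all genes, and DESeq2 called 0, against 9.21%. In 5 of the 8 genes the Fat libraries lay wholly to one side of the Con libraries, against 55.6% of all tested genes: 1 was higher (29.4% of all genes) and 4 were lower (26.2%). The log2 fold change was negative in 6 and positive in 2, with a median of -0.09 against 0.01 over all tested genes. In size regardless of sign the median was 0.11, against 0.12 over all tested genes. Since the 95% intervals of the 8 genes together spanned 0.729-fold to 1.25-fold, larger differences than these lay outside every interval. These are limits for each gene alone under limma with the mean-variance trend, and not a joint bound on the 8 genes.

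**Figure D4:**
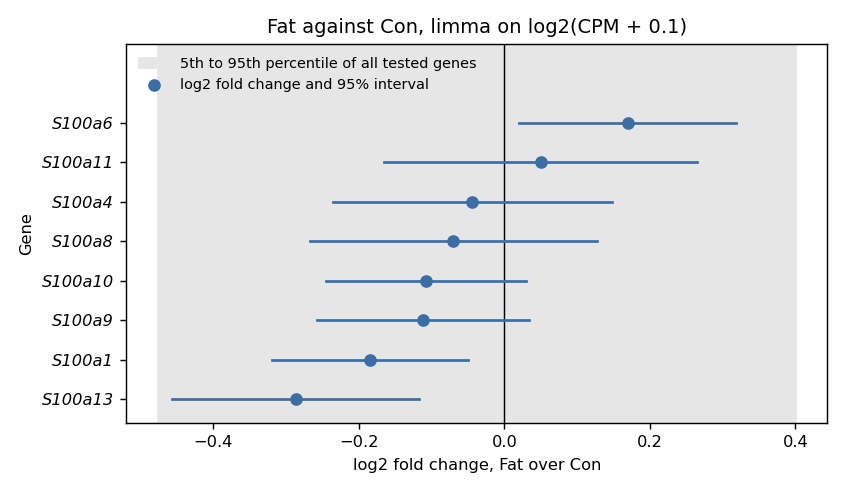
Log2 fold change of Fat over Con for each of the 8 S100 genes, with bars for the 95% interval from limma (n = 2 libraries per group). The grey band spans the 5th to the 95th percentile of all 12470 tested genes, from -0.48 to 0.40, and all 8 intervals lie within it.

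The number of reads did not limit these comparisons. The fewest reads for any member in a library were the 1236 of S100a13 in Fat replicate 1, and the most were the 14986 of S100a11 in the same library. Counting error was at most 2.71% of the level (S100a13 in Fat), while replicates of Con differed with a coefficient of variation of up to 12.3% (S100a8) and those of Fat of up to 11.6% (S100a11). Replicates therefore varied by more than counting error in most cases. Exceptions were S100a10 in Con, where that variation was 0.679% against a counting error of 1.10%, and S100a9 and S100a1 in Fat. The values in Fat were 0.842% against 1.35% for S100a9 and 1.54% against 1.81% for S100a1. The intervals do not come from a gene's own replicates alone, since limma's mean-variance trend also draws on the spread of other genes.

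**Figure D5:**
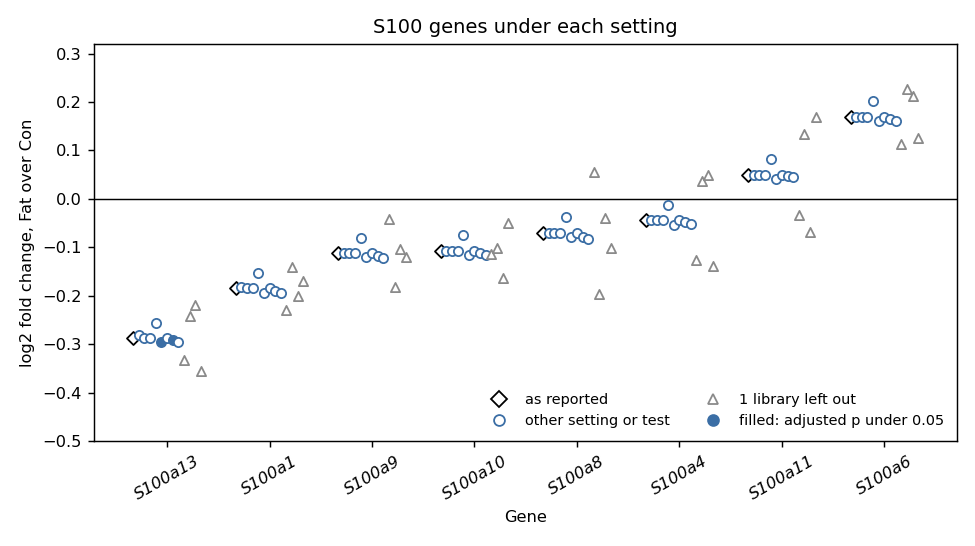
Log2 fold change of Fat over Con for each S100 gene as reported (diamonds), under other settings or tests (circles) and with 1 library left out (triangles). Filled symbols have an adjusted p under 0.05, and the fit with a replicate block is not drawn. The 2 filled symbols belong to S100a13, and triangles fall on both sides of 0 for S100a8, S100a4 and S100a11.

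Receptors and adaptors through which released S100 proteins signal were read from the same fit. Of the 10 listed, all were tested, and limma called 1 higher and 0 lower, with 5 at an unadjusted p under 0.05 and a median log2 fold change of 0.06. Over all tested genes, 3.99% were called higher and 5.0% lower, and 24.1% had an unadjusted p under 0.05. edgeR called 1, against 9.13% of all genes. DESeq2 called 2 higher (Alcam and Cd36) and 1 lower (Tlr4), against 4.0% and 5.22%, and gave no adjusted p for 1 gene. Alcam, an adhesion molecule reported to bind S100 proteins, was at 343.6 and 346.3 CPM in Con and at 402.2 and 418.9 CPM in Fat, or 0.25 on the log2 scale (SE 0.06, adjusted p = 0.0338, and between 0.0505 and 0.192 with a library left out). Tlr4 was at 177.9 and 152.3 CPM in Con and 137.1 and 116.5 CPM in Fat (log2 fold change -0.38, limma adjusted p = 0.0559, DESeq2 adjusted p = 0.00646). Cd36, a scavenger receptor that also binds calprotectin, was at 9199 and 10370 CPM in Con and at 12638 and 12399 CPM in Fat (log2 fold change 0.36, limma adjusted p = 0.163, DESeq2 adjusted p = 0.000356). Ager, which encodes RAGE, was barely expressed, at 0.385 ± 0.206 CPM (SD, n = 2) in Con and 0.429 ± 0.152 CPM (SD, n = 2) in Fat. Its log2 fold change of 0.16 had a 95% interval from -0.83 to 1.15 (adjusted p = 0.861).

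Binding partners inside the cell were read next. Of 11 listed, all were tested, 3 were called higher in Fat and 1 lower, and the median log2 fold change was 0.03. Over all tested genes, limma called 3.99% higher and 5.0% lower. Myh9, the non-muscle myosin heavy chain that S100A4 binds, rose from 474.8 and 514.8 CPM in Con to 703.8 and 713.5 CPM in Fat (log2 fold change 0.52, SE 0.06, adjusted p = 0.00553). Anxa2, partner of S100A10, rose from 818.5 and 962.6 CPM to 1275 and 1214 CPM (log2 fold change 0.49, SE 0.09, adjusted p = 0.0194). Anxa11, a partner of S100A6, rose from 99.3 and 121.6 CPM to 147.4 and 151.9 CPM (log2 fold change 0.44, adjusted p = 0.0271), and 22.1% of its stretches are also found in other genes. Anxa6 fell from 287.0 and 290.2 CPM to 251.0 and 243.7 CPM (log2 fold change -0.22, adjusted p = 0.0426). With a library left out in turn, Myh9 and Anxa2 were called each time, Anxa11 was not called without Fat replicate 2 (adjusted p = 0.0758), and Anxa6 was called in 0 of the 4 cases (adjusted p between 0.0858 and 0.228). Il1a, which is exported with S100A13, was at 3.01 and 2.75 CPM in Con and 1.93 and 1.85 CPM in Fat (log2 fold change -0.58, adjusted p = 0.0732).

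Anxa2 and S100a10, which encode the 2 sides of a complex, were also set against each other within libraries, after their values had been seen. In TPM, Anxa2 divided by S100a10 gave 1.69 and 1.97 for the Con libraries and 2.72 and 2.80 for the Fat libraries. The log2 difference was 0.59 (exact permutation test, two-sided, p = 0.333, the smallest p possible). In both Fat libraries Anxa2 was higher and S100a10 lower than in both Con libraries. The ratio therefore could not overlap between the groups, and the test adds nothing to the values of each gene.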

How the data were processed

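Bulk polyA RNA from macrophages under the fat control medium (Con, 2 libraries) and the high-fat-containing medium (Fat, 2 libraries) was analyzed, with groups taken from the sample titles. The authors deposited CPM values, which are reads scaled to the library total and by a further factor between 0.990 and 1.01 (equal to edgeR's TMM factors), and TPM values, in which gene length is taken into account too. Per the labels the genome build was GRCm39. The paper names edgeR for its comparison, while the aligner, counter and strand setting are not given in the sources used here. CPM values were whole multiples of 1 read in 100% of cases (tolerance 1e-06 of a read), so reads were recovered.

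Fat was compared with Con by limma (version 3.58.1, R 4.3.3), fitted with a mean-variance trend to log2(CPM + 0.1) of every gene that reached 0.5 CPM in 2 or more libraries, two-sided, with Benjamini-Hochberg adjustment over all tested genes and calls at an adjusted p under 0.05. Fold changes on this scale understate those of low genes. edgeR 4.0.16 and DESeq2 1.42.0 were run on the recovered reads as alternatives. Other settings tried were the TPM values, a larger pseudocount (1 CPM), a filter at a mean of 5 CPM or none, rescaling by median ratios, no trend, a replicate block and the omission of single libraries. The tests across genes were checked on simulated counts.

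The members and gene lists were chosen with earlier results of these data known. The genes named from a list are its called members, the 4 with the largest change, and in addition Hmgb1 and Ppia, with the 5 genes nearest in pattern to the member with the largest change. Ngp, Lcn2, Ltf, Mpo, Ctsg, Stfa2, Ly6g, Cxcr2, Retnlg, Slc36a2, Lyz2, Hspa1b and the called cell type markers are named beyond that rule, after their values were seen. Symbols absent from the deposited values were matched through RefSeq synonyms. Promoter windows were found for 7 of the 8 members in RefSeq (GRCm38.p6), which was used for no coordinate of the deposited values. Stretches of 75 bases, every 5 bases, of GENCODE vM21 transcripts were searched in the other transcripts by BWA 0.7.19 with up to 2 mismatches. Limits from counting cover counting error only.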

Additional observations from a re-analysis of the deposited data

How the results depend on the processing

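Of the 104 values recomputed for the 8 S100 genes under 13 alternatives, 94 kept their direction and their side of the threshold, 5 newly passed it and 5 changed direction. The direction could not change under either other filter, the replicate block or the fit without the trend, which leave the log2 fold change as it was. All 5 changes of direction came from the omission of single libraries. The number of S100 genes called was 1 (S100a13) after rescaling by median ratios (log2 fold change -0.30) and 1 (S100a13) with edgeR's quasi-likelihood test (-0.29). When single libraries were left out it was 0 in every case. Their omission gave log2 fold changes between -0.14 and 0.050 for S100a4, between -0.20 and 0.056 for S100a8 and between -0.068 and 0.17 for S100a11, each of which changed direction in at least 1 case. Over all genes 1122 were called, 31 without the mean-variance trend, and between 529 (without Fat replicate 2) and 1131 with a library left out, with 666 without Con replicate 1. The cause was not tested.

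Adding the replicate number as a block gave 2520 calls over all genes (20.2%) and 3 among the S100 genes: S100a13 (log2 fold change -0.29, adjusted p = 0.00121), S100a1 (-0.18, adjusted p = 0.0204) and S100a6 (0.17, adjusted p = 0.0412). The labels give only a shared number. Deviations from the group means correlated at 0.20 between libraries of the same number, over 12470 genes, which does not show with so few pairs that the numbers pair the libraries. With 2 libraries per group, the spread between replicates and not the depth limits what can be seen.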

Other observations

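Alarmins outside the S100 family were listed as well. Of 15, 14 were tested, and 1 was called higher in Fat and 0 lower by limma (5 at an unadjusted p under 0.05), with a median log2 fold change of 0.02. The shares over all tested genes were 3.99% higher and 5.0% lower, with 24.1% at an unadjusted p under 0.05. edgeR called 1, against 9.13% of all genes. DESeq2 called 1 higher and 1 lower (Nampt), against 4.0% and 5.22%, and gave no adjusted p for 1 gene. The gene higher in limma was Hsp90aa1, a cytosolic chaperone, at 76.8 and 79.0 CPM in Con and at 94.2 and 97.9 CPM in Fat (log2 fold change 0.30, SE 0.05, adjusted p = 0.0186, but 0.057 without Con replicate 1 and 0.0981 without Fat replicate 2). Of its sequence, 68.2% of stretches of 75 bases are found in other genes. Nampt, the NAD salvage enzyme that is also released as visfatin, was at 760.7 and 646.5 CPM in Con and 572.4 and 486.9 CPM in Fat (log2 fold change -0.41, limma adjusted p = 0.0516, DESeq2 adjusted p = 0.00163). Camp, which encodes cathelicidin, differed by -0.42 on the log2 scale (adjusted p = 0.0888), and Hspa1a by 0.38 (adjusted p = 0.499). Hspa1a rested on 13 to 27 reads per library, and Hspa1b, also listed, differed by 0.09 (limma adjusted p = 0.899). Stretches shared with other genes were not searched for Hspa1a or Hspa1b. Il1a, which is on this list too, differed by -0.58 (adjusted p = 0.0732). Il33 fell under the filter.

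HMGB1 and cyclophilin A were, with S100A6, the proteins the study looked for in aNBF. Hmgb1 was at 15.6 and 13.6 CPM in Con and at 13.7 and 15.9 CPM in Fat (log2 fold change 0.02, adjusted p = 0.943). Ppia, the gene of cyclophilin A, was at 1.36 and 0.880 CPM in Con and 1.37 and 1.32 CPM in Fat (log2 fold change 0.27, adjusted p = 0.569). Stretches of 75 bases found in other genes made up 43.8% of those of Hmgb1, over 119 other genes, and 31.2% of those of Ppia, over 45, so how their reads were assigned is uncertain. S100a6, which shared 0 such stretches, was at 291.8 ± 16.3 CPM (SD, n = 2) in Con and 328.1 ± 14.0 CPM (SD, n = 2) in Fat.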
